A study of Mus musculus with 10 samples.

Results

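Freshly sorted Scf-GFP-positive stromal cells of mouse bone marrow were compared with freshly sorted Scf-GFP-negative stromal cells by ATAC-seq, which maps open chromatin with an enzyme that inserts sequencing adapters where DNA is accessible. The members were taken by their labels, 2 libraries of each gate, and they were 4 of the 10 libraries of the series. Both groups came from the strain C57BL/6J and carried no transduced gene. Both were sorted as CD45(-), Ter119(-) and CD31(-), a gate that sets aside most blood cells, maturing red cells and endothelial cells, and they differed in the GFP gate alone. By its name Scf-GFP reports the gene of stem cell factor, Kitl, but the labels used here give neither the allele nor the age of the mice, and they do not say whether animals were pooled. The other 6 libraries, 3 of cultured stroma with a control vector (control) and 3 of cultured stroma given the genes Irf3, Irf7, Klf7, Ostf1 and Xbp1 (rMSC), served as an outside readout and, in the limma fits of loci, also gave most of the estimate of spread between replicates. The labels do not say that replicates came from separate animals, so a p-value here weighs a difference against the spread of these libraries only, and that spread may be technical. Per the labels' protocols each library was made from 2700 to 5000 cells with 13 or 17 cycles of PCR, without saying which library had which.

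In adult marrow, stem cell factor and the chemokine Cxcl12 are made mainly by perivascular reticular cells that also express the leptin receptor. These cells support blood stem cells, and they contain progenitors of bone and fat. Accessible chromatin falls into promoters, many of which are open in most cell types, and distal elements, which tend to be open in few cell types.

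The 4 libraries differed in ways that touch every comparison below. They held 39936 to 68298 deposited peaks, so lists were cut to the 39912 peaks of each library on chromosomes 1 to 19 and X with the highest −log10 p given by the authors. At that length the weakest peak had a −log10 q of 2.653 and 2.097 in Scf-GFP-negative replicates 1 and 2, against 4.268 and 4.295 in Scf-GFP-positive replicates 1 and 2. Peaks were also narrower in the Scf-GFP-negative lists, with median widths of 321 and 410 bp against 467 and 510 bp. Read numbers were not used here, so depth is unknown, and absence from a list does not show that a site was closed. The part of this difference in peak strength in the results below was not tested. In Scf-GFP-negative replicate 1, 10.1% of peaks lay on chromosome 6, against 5.55% to 5.93% in the other 3 sorted libraries. Its shares on chromosomes 2 and 5, 8.95% and 7.7%, were also the highest of the 4 libraries. With 2 libraries against 2, an exact permutation test of a single value cannot go below 0.33, so differences between the gates carry p-values only where limma was fitted across all loci. The peak names carry what reads as a flow cell tag, 1 for replicate 1 and another for replicate 2 in both gates, so within a tag there is 1 library against 1 and no test.

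Promoters open only in the Scf-GFP-positive libraries were those of stromal genes: the niche factors Kitl and Cxcl12, the leptin receptor Lepr, the reticular cell regulator Foxc1 and many genes of collagens and other matrix proteins. Promoters open only in the Scf-GFP-negative libraries were few and included a set of red cell genes. A promoter was called open where a peak summit lay within 1 kb of a gene start. Of 21627 promoters examined, 9531 were open in all 4 sorted libraries and 8303 in none. Open in both Scf-GFP-positive and in neither Scf-GFP-negative library were 1243 promoters, 5.75% of those examined. The reverse held for 170 promoters, 0.786% of those examined. Of the promoters open in both Scf-GFP-negative libraries, 95.7% were also open in both Scf-GFP-positive libraries, and in the other direction the share was 82.7%. With all deposited peaks in place of equal lists the counts were 1457 and 113.

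Sequences are shown for 9 of these promoters, because the promoter sets differed in their content of CG dinucleotides. They were chosen after their values were seen, the first 5 as niche or reticular genes or, for Wwtr1, as a top-ranked promoter, and the last 4 as red cell genes. Each is the 200 bases before a RefSeq gene start (GRCm38.p6, coordinates as in mm10), 5′ to 3′ on the strand of the gene, with every CG in capitals. The Kitl window (chr10:100015621-100015820, plus strand) holds 20 CG, that of Cxcl12 (chr6:117168335-117168534, plus strand) 13, that of Lepr (chr4:101717207-101717406, plus strand) 10, that of Foxc1 (chr13:31806446-31806645, plus strand) 20 and that of Wwtr1 (chr3:57575911-57576110, minus strand) 15.
Kitl: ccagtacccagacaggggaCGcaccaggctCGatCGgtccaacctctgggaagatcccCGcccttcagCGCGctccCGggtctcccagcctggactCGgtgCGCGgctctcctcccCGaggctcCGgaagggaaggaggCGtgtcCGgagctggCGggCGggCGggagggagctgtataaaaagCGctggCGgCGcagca
Cxcl12: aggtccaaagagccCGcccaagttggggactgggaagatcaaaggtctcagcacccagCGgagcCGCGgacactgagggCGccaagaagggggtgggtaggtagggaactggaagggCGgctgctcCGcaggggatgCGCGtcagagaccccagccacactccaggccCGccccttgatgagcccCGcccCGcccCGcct
Lepr: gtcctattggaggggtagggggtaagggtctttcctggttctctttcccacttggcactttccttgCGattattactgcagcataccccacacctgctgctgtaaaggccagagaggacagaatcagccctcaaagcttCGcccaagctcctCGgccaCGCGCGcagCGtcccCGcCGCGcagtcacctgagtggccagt
Foxc1: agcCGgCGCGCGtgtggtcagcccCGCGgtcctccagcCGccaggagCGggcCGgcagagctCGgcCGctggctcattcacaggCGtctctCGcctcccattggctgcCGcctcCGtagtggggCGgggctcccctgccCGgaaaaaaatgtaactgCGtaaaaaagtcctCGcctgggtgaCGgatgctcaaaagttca
Wwtr1: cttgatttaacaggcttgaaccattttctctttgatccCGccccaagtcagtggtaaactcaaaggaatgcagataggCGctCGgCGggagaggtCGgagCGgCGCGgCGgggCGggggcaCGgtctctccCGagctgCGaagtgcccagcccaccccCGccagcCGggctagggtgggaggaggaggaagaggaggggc

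The windows of the red cell genes, open in both Scf-GFP-negative and in no Scf-GFP-positive list, hold 0 CG for the beta-globin gene Hbb-bt (chr7:103813924-103814123, minus strand), 1 for the membrane skeleton gene Epb42 (chr2:121036878-121037077, minus strand), 1 for the blood group glycoprotein gene Rhag (chr17:40810949-40811148, plus strand) and 2 for the red cell regulator Gata1 (chrX:7967911-7968110, minus strand).
Hbb-bt: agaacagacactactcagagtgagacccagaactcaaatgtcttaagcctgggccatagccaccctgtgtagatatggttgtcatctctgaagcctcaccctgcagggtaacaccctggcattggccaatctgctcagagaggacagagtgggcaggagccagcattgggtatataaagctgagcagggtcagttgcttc
Epb42: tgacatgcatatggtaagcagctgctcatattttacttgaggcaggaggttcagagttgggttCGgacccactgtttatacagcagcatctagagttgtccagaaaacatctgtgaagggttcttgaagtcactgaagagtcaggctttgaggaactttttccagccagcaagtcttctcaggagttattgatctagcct
Rhag: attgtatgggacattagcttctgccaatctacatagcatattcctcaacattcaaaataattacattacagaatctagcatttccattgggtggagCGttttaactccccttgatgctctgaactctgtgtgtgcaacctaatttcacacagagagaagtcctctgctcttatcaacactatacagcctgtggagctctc
Gata1: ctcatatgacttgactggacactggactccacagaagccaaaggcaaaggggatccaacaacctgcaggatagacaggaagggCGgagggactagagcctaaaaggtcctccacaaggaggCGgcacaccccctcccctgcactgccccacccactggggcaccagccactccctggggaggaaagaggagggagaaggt

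Over the whole sets the contrast had the same direction but was milder than in the windows shown. RefSeq promoter sequences of 300 bases, 250 before and 50 after the start, were matched for 17273 genes, 1 start per gene, among them 919 of the Scf-GFP-positive-only and 129 of the Scf-GFP-negative-only promoters. The median number of CG per 300 bases was 17 (quartiles 8 and 27.5) in the Scf-GFP-positive-only set and 8 (quartiles 4 and 14) in the Scf-GFP-negative-only set. It was 22 in promoters open in all 4 libraries and 14 in all matched promoters. The GC box GGGCGG, read on both strands, was present in 60.7% of Scf-GFP-positive-only, 36.4% of Scf-GFP-negative-only, 70.2% of all-4 and 46.9% of all promoters.

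Of 14 motifs searched on both strands, with the 2 GATA forms counted apart, some others are given, picked after the shares were seen. The Ets motif CCGGAAG was in 22% of promoters open in all 4 libraries, but in 5.44% of the Scf-GFP-positive-only and 5.43% of the Scf-GFP-negative-only promoters, against 12.1% of all promoters. The palindromic motif of Ebf factors was in 2.72% of the Scf-GFP-positive-only promoters, 25 of 919, against 0.926% of all promoters and 0.775% of the Scf-GFP-negative-only set. The GATA motif AGATAA was in 8.53% of Scf-GFP-negative-only and 5.33% of Scf-GFP-positive-only promoters, both below the 9.99% of all promoters, whereas its shorter form GATAA was in 29.5% of Scf-GFP-negative-only and 14.1% of Scf-GFP-positive-only promoters against 23% of all. These shares describe letters in a window and are not binding sites, and the CACCC box CCNCNCCC, which can overlap the GC box, was in 73% and 63.6% of the 2 sets against 56.5% of all promoters.

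The rank of a peak in its list of 39912 (rank 1 has the highest −log10 p) gives the strength of a promoter peak within a library. For Kitl the ranks were 6231 and 13922 in Scf-GFP-positive replicates 1 and 2, and for Cxcl12 they were 7384 and 11186. For Lepr they were 14374 and 26972, in the weaker part of the lists. Foxc1, a transcription factor that maintains reticular cells, was stronger at 2658 and 4684. None of these 4 promoters had a summit in either Scf-GFP-negative list. The Ebf3 promoter, of another factor of reticular cells, was open in all 4 libraries, with ranks of 23909 and 22504 in the Scf-GFP-negative and 5165 and 9114 in the Scf-GFP-positive lists. In culture the Kitl and Foxc1 promoters were open in 6 of 6 libraries and that of Cxcl12 in 5, whereas Lepr was open in none.

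The 6 Scf-GFP-positive-only promoters with the best ranks were those of Pdk4, Wwtr1, Ptprk, Fbxl7, Col11a1 and Pcdh10. Pdk4 encodes a kinase that holds back pyruvate dehydrogenase, and its ranks were 312 and 896. Wwtr1 encodes TAZ, a co-activator of the Hippo pathway, with ranks of 1093 and 1780. The ranks of the other 4 lay between 1109 and 2790. All 6 were open in at least 5 of the 6 cultured libraries, and no Scf-GFP-negative peak reached their windows.

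Among the Scf-GFP-negative-only promoters the 6 best-ranked were those of Gtf2i, Efcab11, Tnfrsf14, Pbx3, Klc1 and Hbb-bt. In 5 of them, all but Hbb-bt, a Scf-GFP-positive peak reached into the window with its summit outside, so the difference was in the place of the summit. A stricter class, in which no Scf-GFP-positive peak touched the window, held 149 promoters, and the matching Scf-GFP-positive class held 1216. The best-ranked of the 149 were Hbb-bt, with ranks of 9676 and 9788, Epb42 (7508 and 9878), Stard10 (10718 and 9082) and Rhag (11135 and 9125). None of these 4 was open in any cultured library.

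The gene lists that follow describe the groups without a test, and the promoters named from them were picked after their ranks were seen. Of all 21627 promoters, 10517 and 10832 were open in the Scf-GFP-negative and 12127 and 12087 in the Scf-GFP-positive libraries. Open in the Scf-GFP-positive libraries alone were 5.75% of all promoters, and in the Scf-GFP-negative libraries alone 0.786%. Each list is to be read beside these values. Of 25 niche ligands, secreted factors with which stroma supports blood cells, 4 and 6 promoters were open in Scf-GFP-negative replicates 1 and 2 and 18 in each Scf-GFP-positive library. The 12 that were open in the Scf-GFP-positive libraries alone (48% of the list, beside 5.75% of all promoters) were Kitl, Cxcl12, Il7, Il6, Pdgfa, Bmp4, Bmp6, Spp1, Fgf7, Grem1, Tnfsf11 and Ptn. Il7, the growth factor of early lymphocytes, had ranks of 6125 and 5998. The growth factor Mdk was the exception, open in the Scf-GFP-negative libraries alone, with ranks of 34853 and 17572.

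Of 29 regulators and markers of reticular cells, 5 and 10 promoters were open in the Scf-GFP-negative and 23 and 19 in the Scf-GFP-positive libraries. Besides Lepr and Foxc1, the 10 Scf-GFP-positive-only promoters included those of the mesenchymal transcription factors Twist1 (ranks 8214 and 7116), Snai2 (8166 and 8431) and Tbx18 (6974 and 6341). Collagens and matrix genes had the largest share of Scf-GFP-positive-only promoters of the 24 lists. Of 40 promoters, 4 and 3 were open in the Scf-GFP-negative and 32 in each Scf-GFP-positive library, and 25 (62.5%) were open in the Scf-GFP-positive libraries alone. Among these were the basement membrane collagen pair Col4a1 and Col4a2, which share 1 promoter peak (ranks 8877 and 25646), the fibrillar collagen Col5a1 (9292 and 9524) and the matricellular genes Ccn1 (5130 and 6545) and Ccn2 (4481 and 7281).

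Of 22 osteoblast genes, 4 and 5 promoters were open in the Scf-GFP-negative and 17 and 18 in the Scf-GFP-positive libraries. Open in the latter alone were 11, among them the master regulator Runx2 (ranks 12823 and 19440), alkaline phosphatase Alpl (30029 and 23666), osteocalcin Bglap (20155 and 16705) and bone sialoprotein Ibsp (16102 and 11277). Runx2 was open in 6 of 6 cultured libraries, and Alpl, Bglap and Ibsp in none. Adipocyte genes gave 7 and 8 of 19 promoters against 15 and 16, with the fat regulator Pparg (9649 and 22564) and the hormone gene Adipoq (20731 and 15273) open in the Scf-GFP-positive libraries alone. Contractile and pericyte genes gave 8 and 7 of 27 against 21 and 18, with the receptor Pdgfrb at ranks 5058 and 5730.

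Promoters of signalling genes were also open more often in the Scf-GFP-positive libraries, as, by a smaller margin, were all promoters. Promoters of the Wnt pathway were open for 14 of 32 genes in each Scf-GFP-negative library and for 27 and 29 in the Scf-GFP-positive libraries. For TGF-beta and BMP the numbers were 17 and 20 against 29 and 26 of 31, for YAP and TAZ 10 and 9 against 16 of 18 in each, and for PDGF and FGF receptors 8 and 11 against 16 and 14 of 18. Notch pathway promoters were nearest to each other, with 12 and 15 against 18 and 17 of 19. Lists of widely used genes gave a base line. Cell cycle promoters were open for 35 and 34 of 36 genes against 36 in each, and ubiquitously open genes for 18 of 20 in each Scf-GFP-negative library against 18 and 19.

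Red cell genes ran the other way. Of 61 erythroid promoters, 52 and 50 were open in the Scf-GFP-negative, 45 in each Scf-GFP-positive and 28 to 33 in the cultured libraries. The 7 that were open in the Scf-GFP-negative libraries alone (11.5% of the list, beside 0.786% of all promoters) were Gata1, Slc4a1, Epb42, Rhag, Rhd, Hbb-bt and Trim58. Slc4a1 encodes the anion exchanger of the red cell membrane and Rhd a blood group protein, and none of the 7 was open in culture. Sphk1, a lipid kinase gene, was open in the Scf-GFP-positive libraries alone, though a Scf-GFP-negative peak reached its window with its summit outside.

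Several red cell and blood promoters were open in both gates but ranked far higher in the Scf-GFP-negative lists; those named here were chosen after their ranks were seen. The adult beta-globin gene Hbb-bs stood at ranks 1245 and 1426 in the Scf-GFP-negative and at 18520 and 12977 in the Scf-GFP-positive lists, and was open in no cultured library. Tal1, a regulator of blood and red cell formation, stood at 2865 and 3196 against 19726 and 19465. Lyl1, its relative, stood at 2530 and 2879 against 14066 and 30426. Ikzf1, a lymphoid and blood regulator, stood at 4757 and 7396 against 20238 and 24590. Klf1, a red cell regulator, stood at 7030 and 6178, and had a summit in only 1 of the Scf-GFP-positive lists, at 22795.

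Blood markers were thus present in both gates. Of 34 pan-haematopoietic promoters, 22 and 24 were open in the Scf-GFP-negative, 24 and 22 in the Scf-GFP-positive and 6 to 8 in the cultured libraries. The promoter of Ptprc, which encodes the CD45 antigen used to gate cells out, was open in both Scf-GFP-negative lists (ranks 26946 and 16116) and in no Scf-GFP-positive or cultured list. Ptprc and Dock2 were the 2 promoters of the list open in the Scf-GFP-negative libraries alone (5.88%, beside 0.786% of all promoters). Another 2, Fli1 and Erg, were open in the Scf-GFP-positive libraries alone (5.88%, beside 5.75% of all promoters). Over the gene body and 10 kb on either side, however, Erg had fewer summits in the Scf-GFP-positive libraries (limma adjusted p under 0.05). The summed summits of the list's loci were 199 and 234 in the Scf-GFP-negative, 123 and 124 in the Scf-GFP-positive and 63 to 72 in the cultured libraries. In such samples, fewer cells of a type and less accessibility per cell cannot be told apart, and the part of blood cells in the results was not tested. Endothelial promoters were few in all 4 libraries, 3 or 4 of 22, and those of Pecam1, the CD31 gene, and Cdh5 were open in none. Myeloid promoters were open for 2 of 31 genes in each Scf-GFP-negative and 6 and 4 in the Scf-GFP-positive libraries.

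**Figure D1:**
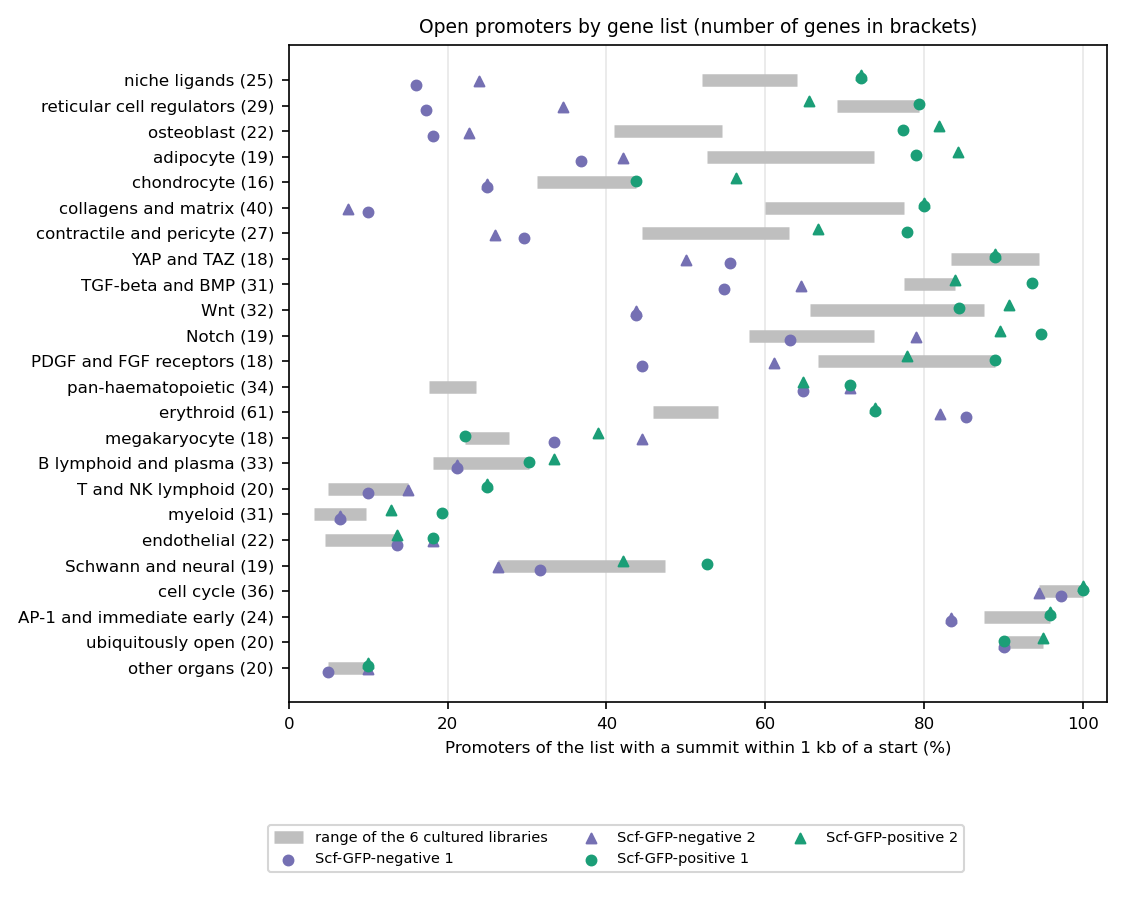
Share of the promoters of each gene list with a peak summit within 1 kb of a start (x axis, %), for the 4 sorted libraries (points) and over the 6 cultured libraries (grey bars, lowest to highest). Collagens and matrix show 4 and 3 open promoters of 40 in the Scf-GFP-negative and 32 in each Scf-GFP-positive library, and the erythroid list runs the other way.

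Whole loci were compared next, by the number of peak summits in the gene body and 10 kb on either side. Among the largest gains in the Scf-GFP-positive libraries were Fndc3b, Pknox2 and Dlc1, and among the largest losses were Rhoh, Hbb-bt and Sppl3. A locus was tested if its mean over the 4 sorted libraries reached 2 summits. Of 9699 such loci, 1060 (10.9%) had more and 1778 (18.3%) had fewer summits in the Scf-GFP-positive libraries at an adjusted p (limma, Benjamini-Hochberg, two-sided) under 0.05. All these loci had non-overlapping groups, as had 16.2% and 32.3% of tested loci in the 2 directions whether called or not. The balance between directions rested on the list length and the measure. With all deposited peaks the limma counts were 1414 higher (12.7%) and 456 lower (4.11%), so that 75.6% of calls were higher in place of 37.4%, and with bases covered by peaks in place of summits they were 1704 and 1271, or 57.3%. The median log2 change over all loci was −0.24 with equal lists, 0 with all peaks and −0.07 with covered bases, and the changes below are not shifted for it. Without Scf-GFP-positive replicate 1 or 2, the higher loci fell to 572 or 618, and a limma fit of the 4 sorted libraries alone called 439 (4.53%) higher and 623 (6.42%) lower. With the flow cell tag as a term, chosen after seeing the data, limma called 1028 and 1653.

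The largest gains were at loci with no summit in either Scf-GFP-negative list, so no fold is given for them. Fndc3b, a membrane protein gene active in mesenchyme, had 0 and 0 summits in Scf-GFP-negative replicates 1 and 2 and 22 and 20 in Scf-GFP-positive replicates 1 and 2 (chr3:27416135-27711307, limma adjusted p = 8.747e-06). Dlc1, a GTPase-activating protein that acts on the cell skeleton, had 0 and 0 against 18 and 20 (chr8:36567739-36953184, limma adjusted p = 1.083e-06). Palld, an actin-bundling protein, had 0 and 0 against 15 and 15 (limma adjusted p = 3.562e-06). That the gates were fully separate and the calls held under each of the 4 left-out libraries was a condition for being named. The calls of all 3 also held with all peaks, with 20000 peaks and in the sorted libraries alone. These settings reuse the same 4 sorted libraries, so they give no separate support.

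Further loci of the 15 with the largest gain had the same form. Pknox2, a homeobox gene, had 0 and 0 summits against 23 and 18, and Adamts2, the enzyme that trims procollagen, had 0 and 0 against 11 and 10. Egfr, the receptor of epidermal growth factor, had 0 and 0 against 16 and 9, and the adhesion gene Cdh2, N-cadherin, had 0 and 0 against 12 and 9. Mylk, the kinase of the myosin light chain, had 0 and 0 against 13 and 14. Limch1, an actin-associated gene, had 0 and 0 against 13 and 14, but 4, 1 and 3 summits in the control and 0, 0 and 2 in the rMSC libraries. Fndc3b in comparison kept 16, 20 and 19 in control and 12, 16 and 13 in rMSC. Of the 1060 higher loci, 167 had no summit in either Scf-GFP-negative list.

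Loci with fewer summits were less often empty: 20 of the 1778 had none in either Scf-GFP-positive list. Rhoh, a GTPase gene of blood cells, had 7 and 7 summits in the Scf-GFP-negative and 0 and 0 in the Scf-GFP-positive libraries (chr5:65860742-65896700, limma adjusted p = 0.0017). Hbb-bt, in the beta-globin cluster, had 6 and 7 against 1 and 0, a log2 change of −3.01 ± 0.44 (SE, limma adjusted p = 0.003166), but it was not called with all deposited peaks or in the sorted libraries alone. Its neighbours share this window, so the summits belong to the cluster. Abi1, a gene of the actin-regulating WAVE complex, had 11 and 11 against 1 and 1 (log2 −2.94 ± 0.14, limma adjusted p = 3.64e-05), and Sppl3, a membrane protease gene, had 10 and 13 against 1 and 1 (log2 −2.99 ± 0.26, limma adjusted p = 0.0002613).

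Others of the 15 largest losses follow. Stap1, an adaptor of lymphoid cells, had 7 and 9 against 1 and 1, Unc13d, a gene of cytotoxic granule release, had 8 and 13 against 2 and 1, and St3gal5, a ganglioside synthase gene, had 15 and 11 against 1 and 3. Unc13d and St3gal5 were not called in the sorted libraries alone. St3gal5 lies on chromosome 6, where Scf-GFP-negative replicate 1 had an excess of peaks. On that chromosome 162 of 546 tested loci had fewer summits in the Scf-GFP-positive libraries (limma), beside 1778 of all 9699. Eefsec, a translation factor gene on chromosome 6, had 24 and 8 against 2 and 2, with Scf-GFP-negative replicate 1, the library with an excess of peaks on that chromosome, far above replicate 2, and it was not called with all peaks, with 20000 peaks or in the sorted libraries alone. At Abi1 and Sppl3 the 1 summit left in each Scf-GFP-positive library lay near the promoter: the distal summits were 10 and 10 against 0 and 0 for Abi1 and 9 and 11 against 0 and 0 for Sppl3.

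**Figure D2:**
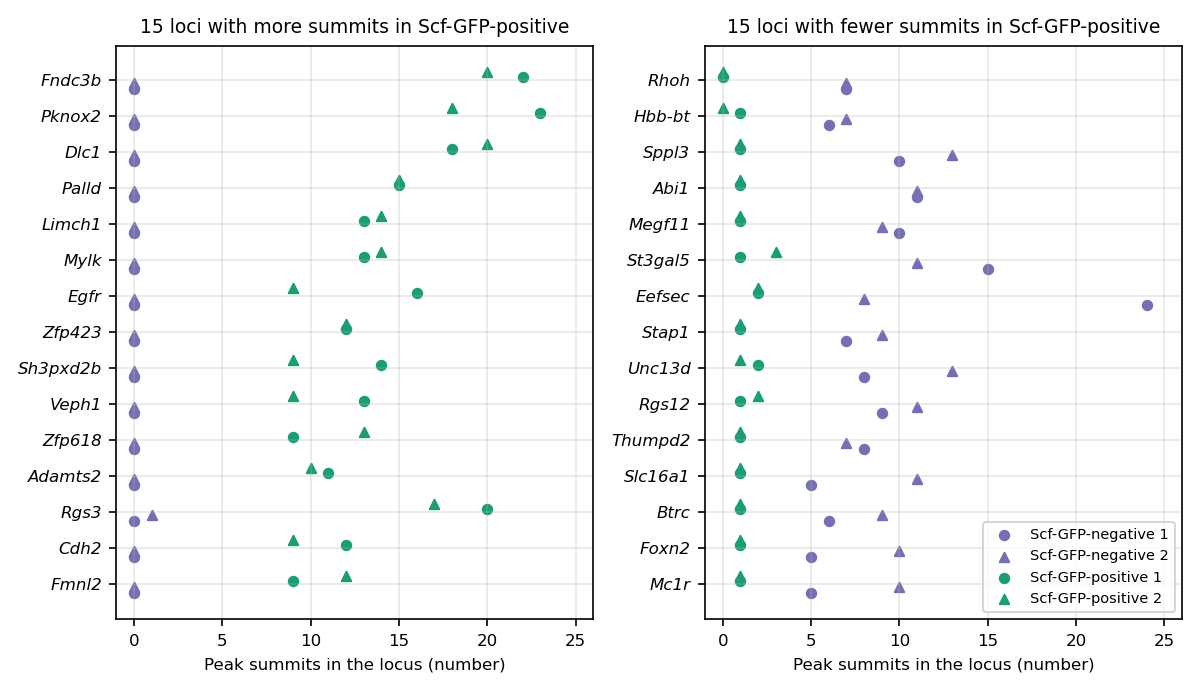
Peak summits per locus (x axis, number) for the 15 loci with the largest gain and the 15 with the largest loss in Scf-GFP-positive cells, 1 point per library. In the left panel every Scf-GFP-negative point lies at 0 or, for 1 library at Rgs3, at 1; in the right panel the Scf-GFP-positive points lie between 0 and 3.

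Counts over the loci of each list are given beside the shares of all tested loci, 10.9% higher and 18.3% lower, or 4.53% and 6.42% in the 4 sorted libraries alone. Since a list member could pass the filter through the group where it was high, the counts are over tested members and are no support by themselves. Of 40 collagens and matrix genes, 21 were tested, 14 were higher and 0 lower in limma, with a median log2 change of 3.01 (1.32 with loci at 0 in a gate set to 3 summits over that gate) beside −0.24 for all loci. Without Scf-GFP-positive replicate 1 the count was 7 of 15, and in the sorted libraries alone 7 of 21. Col4a1 had 0 and 0 against 15 and 7 summits, Col12a1, of a collagen that lies on fibrils, 0 and 0 against 9 and 11, and Fbn1, fibrillin, 1 and 0 against 13 and 10 (log2 3.78 ± 0.44, limma adjusted p = 0.001204), though Fbn1 was not called in the sorted libraries alone.

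Of 22 osteoblast genes, 13 were tested, 8 were higher and 0 lower (median 2.38, or 1.65 at the bound), but 5 of 10 without Scf-GFP-positive replicate 2 and 2 of 13 in the sorted libraries alone. Sparc, osteonectin, had 0 and 1 against 12 and 10 summits (log2 3.73 ± 0.45, limma adjusted p = 0.001387). Alpl had 0 and 1 against 10 and 9 (log2 3.53 ± 0.43, limma adjusted p = 0.001432), and 1, 1 and 1 in control and 0, 0 and 0 in rMSC libraries, so these summits were high in the sorted Scf-GFP-positive cells and not in culture. Neither was called in the 4 sorted libraries alone.

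Adipocyte loci were split, although 7 of their promoters were open in the Scf-GFP-positive libraries alone and 0 in the others alone. Of 19 genes, 12 were tested and 3 were higher, Zfp423, Klf15 and Cebpa, while 3 were lower, Acsl1, Cd36 and Adipor2 (median 0.79). The fatty acid transporter gene Cd36 had 7 and 4 against 1 and 1 summits, a loss not called with all peaks or in the sorted libraries alone. In the sorted libraries alone 2 were higher and 1 lower, with all peaks 4 of 16 and 1, and without Scf-GFP-negative replicate 2 there were 6 of 15 and 2.

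Of 29 regulators of reticular cells, 18 were tested, 10 were higher and 0 lower (median 2.37, or 1.52 at the bound), but 4 of 12 or 5 of 13 without Scf-GFP-positive replicate 1 or 2. In the sorted libraries alone 6 were higher and 1 lower. Ebf1, a factor of B cells that reticular cells also use, had 2 and 2 against 13 and 13 summits (log2 2.43 ± 0.17, limma adjusted p = 0.0001224), and was also called with all peaks, in the sorted libraries alone and with each of the 4 left out. Prrx1, a limb and skeletal mesenchyme factor, had 0 and 0 against 8 and 5, and Tbx18 0 and 0 against 5 and 6. Prrx1 fell below the filter without Scf-GFP-positive replicate 1, and Tbx18 without Scf-GFP-positive replicate 2. Foxc1 had 0 and 2 against 5 and 5 (log2 2.30 ± 0.86, limma adjusted p = 0.08578) and Ebf3 3 and 1 against 3 and 4 (log2 0.79 ± 0.42, limma adjusted p = 0.2011), and neither passed.

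Of 25 niche ligands, 13 were tested, 7 were higher and 0 lower (median 0.49), and 2 of 10 or 4 of 11 without Scf-GFP-positive replicate 1 or 2 but 11 of 17 without Scf-GFP-negative replicate 1. In the sorted libraries alone 2 of 13 were higher, and with the 20000 strongest peaks 0 of 4. Kitl had 1 and 0 against 7 and 2 summits (chr10:100015615-100100416, log2 2.32 ± 0.60, limma adjusted p = 0.02595). Its call was lost without Scf-GFP-negative replicate 2 or Scf-GFP-positive replicate 1, where the highest limma adjusted p was 0.1167. Il34, a ligand of the macrophage receptor, had 0 and 1 against 9 and 7 (log2 3.28 ± 0.45, limma adjusted p = 0.002382), and Csf1, its partner ligand, 0 and 1 against 9 and 5 (log2 3.06 ± 0.51, limma adjusted p = 0.005279). None of these 3 was called in the sorted libraries alone, with limma adjusted p of 0.2555, 0.1315 and 0.1512. Cxcl12, with 1 and 0 against 2 and 3, and Lepr, with 1 and 0 against 2 and 2, fell below the filter and were not tested.

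Receptors and pathway genes rose in part. In limma, 8 of 16 tested Notch genes, 8 of 20 Wnt genes, 9 of 22 TGF-beta and BMP genes and 6 of 11 PDGF and FGF receptor genes were higher, against 0, 1, 1 and 0 lower. Without Scf-GFP-positive replicate 1 these counts were 2, 3, 5 and 4, without replicate 2 they were 3, 3, 5 and 3, and the Notch count was 4 without Scf-GFP-negative replicate 1. In the sorted libraries alone they were 3, 2, 2 and 2. Notch1, a receptor, had 1 and 1 against 9 and 8 summits (log2 2.58 ± 0.15, limma adjusted p = 5.289e-05). Heyl, a Notch target, had 0 and 1 against 8 and 6 (limma adjusted p = 0.0118) and 1 or 0 in every cultured library. Its call was lost without Scf-GFP-negative replicate 1 or Scf-GFP-positive replicate 1, with limma adjusted p up to 0.06715. Ror1, a receptor of Wnt5a, had 0 and 0 against 11 and 9, and Smad6, an inhibitor of BMP signals, had 2 and 1 against 10 and 11 (log2 2.50 ± 0.32, limma adjusted p = 0.001677). Heyl and Smad6 were not called in the sorted libraries alone, nor Smad6 with the 20000 strongest peaks.

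The YAP and TAZ list was split, with 6 of 15 tested loci higher and 4 lower. Higher were the partner factor Tead1 (0 and 0 against 6 and 4) and the adaptor Amotl2 (1 and 0 against 10 and 7, log2 3.36 ± 0.53, limma adjusted p = 0.0042). Lower was the upstream kinase Lats1 (5 and 7 against 2 and 2, log2 −1.36 ± 0.23, limma adjusted p = 0.005848), whose distal summits were 2 and 5 against 0 and 0. With all peaks 5 were higher and 0 lower, without Scf-GFP-positive replicate 1 the counts were 3 and 5, and in the sorted libraries alone 2 and 1. Amotl2 and Lats1 were not called in the sorted libraries alone, nor Lats1 with all peaks or covered bases. Tead1 fell below the filter without Scf-GFP-positive replicate 1.

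Of 61 erythroid genes, 54 were tested, 0 were higher and 23 lower, with a median of −0.79 beside −0.24 for all loci, and 13 or 14 were lower without Scf-GFP-negative replicate 1 or 2. The count was 8 in the 4 sorted libraries alone and 5 of 57 with all deposited peaks, where 4.11% of all loci were lower. Tal1 had 11 and 14 against 2 and 3 summits (log2 −2.13 ± 0.51, limma adjusted p = 0.01991), a call lost under each left-out library. Its distal summits, 8 and 13 against 1 and 1, gave a log2 change of −2.84 ± 0.24 (limma adjusted p = 0.0001192), and 1 of 6 cultured libraries had a summit in the locus. Cpox, of haem synthesis, had 8 and 8 against 1 and 2 (log2 −2.13 ± 0.21, limma adjusted p = 0.0005657). Neither Tal1 nor Cpox was called with all peaks (limma adjusted p = 0.395 and 0.05028) or in the sorted libraries alone (limma adjusted p = 0.05624 and 0.074).

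Of 26 tested pan-haematopoietic loci 9 were lower and 1, Fli1, was higher, and the lower count was 3 without Scf-GFP-negative replicate 2, 4 or 5 without Scf-GFP-positive replicate 1 or 2, 3 of 29 with all peaks and 2 of 26 in the sorted libraries alone. Of all tested loci 18.3% were lower, or 4.11% with all peaks and 6.42% in the sorted libraries alone. Ptprc had 5 and 5 against 0 and 0 summits (limma adjusted p = 0.0001267), and Lcp1, plastin of blood cells, 8 and 9 against 1 and 2 (log2 −2.21 ± 0.53, limma adjusted p = 0.01932). The Lcp1 call was lost without either Scf-GFP-negative library or Scf-GFP-positive replicate 1 (limma adjusted p up to 0.1069), with all peaks and in the sorted libraries alone, and Ptprc fell below the filter without either Scf-GFP-negative library. Cell cycle loci showed a similar count, with 14 of 29 lower and 0 higher (median −0.75), though nearly all their promoters were open in both gates. Without Scf-GFP-negative replicate 1 or 2 there were 7, without Scf-GFP-positive replicate 2 there were 9, in the sorted libraries alone 5, and 2 of 32 with all peaks. Cdk6, a kinase of cell cycle entry, had 29 and 32 against 8 and 8 (log2 −1.86 ± 0.20, limma adjusted p = 0.000813), and Mki67, a proliferation marker, had 7 and 14 against 2 and 2, a call lost without Scf-GFP-positive replicate 1 (limma adjusted p = 0.05077) and in the sorted libraries alone. Neither was called with the 20000 strongest peaks.

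**Figure D3:**
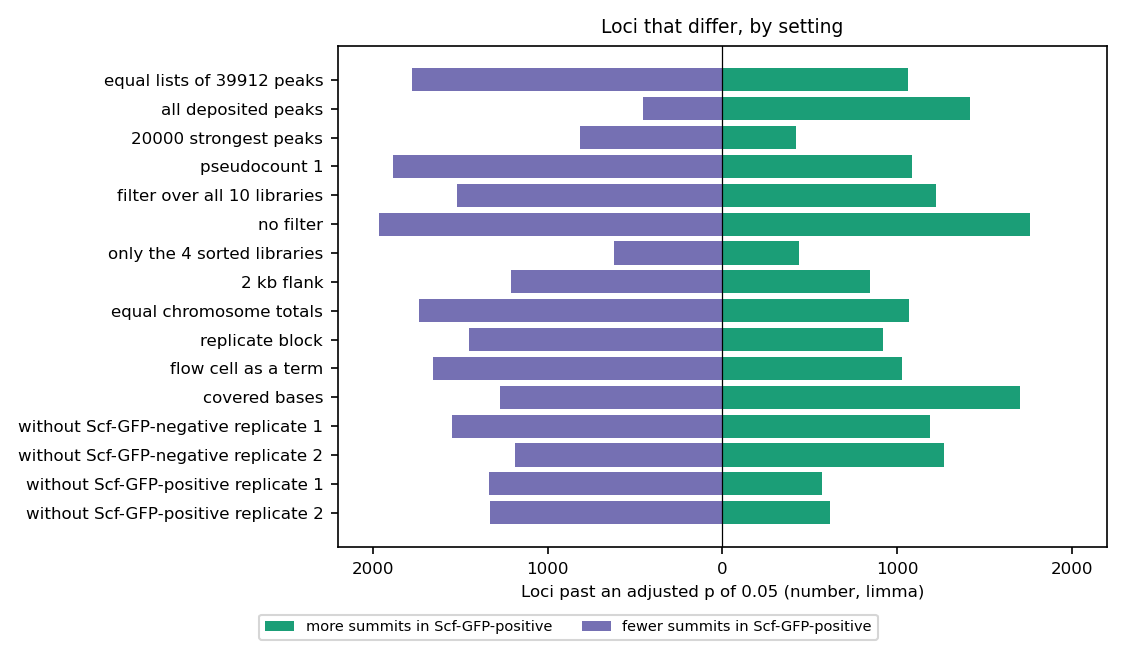
Number of loci past a limma adjusted p of 0.05 under each setting, with more summits in Scf-GFP-positive libraries to the right and fewer to the left. The lower side shrinks from 1778 to 456 with all deposited peaks, while the higher side goes from 1060 to 1414.

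Distal sites set the gates apart more than promoters did. In 4352 loci tested on summits over 1 kb from any start, 747 (17.2%) had more and 952 (21.9%) fewer distal summits in the Scf-GFP-positive libraries (limma). Without Scf-GFP-positive replicate 1 or 2 the higher count was 405 or 442, without Scf-GFP-negative replicate 1 or 2 the lower count was 614 or 447, and with all peaks the counts were 1048 and 297. Peaks of the 4 lists were then merged into 82826 regions. Of the regions near a start (within 1 kb) that were open in both Scf-GFP-positive libraries, 80% were open in both Scf-GFP-negative libraries as well, whereas of the 15495 distal ones 24.6% were, and 66.3% were open in neither. In the other direction 93.3% of near and 34% of distal regions of the Scf-GFP-negative pair were open in both Scf-GFP-positive libraries. Replicates of a gate shared 84.2% to 92.3% of near and 42.6% to 60.7% of distal regions, and libraries of different gates 76% to 88.4% and 21% to 26.1%. At near regions the 2 ranges overlap, and at distal regions they do not.

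Regions open in both Scf-GFP-positive and no Scf-GFP-negative libraries numbered 11757 (14.2% of regions), and the reverse numbered 5444 (6.57%). Their positions differed. Of the Scf-GFP-positive-only regions 12.7% lay within 1 kb of a start, 19.3% at 1 to 10 kb and 18.9% beyond 100 kb. Of the Scf-GFP-negative-only regions 6.34% lay within 1 kb, 38% at 1 to 10 kb and 6.83% beyond 100 kb. The median distance of the distal ones to a start was 34083 and 14457 bp, and 50.4% and 64.5% of them lay in a gene body. Regions open in all 4 libraries lay within 1 kb of a start in 69.6%. The whole Scf-GFP-negative lists, from which these regions came, held 25.3% and 30% of summits at 1 to 10 kb in replicates 1 and 2. The shares were 20.2% and 20% in the Scf-GFP-positive and 17.9% to 19.5% in the cultured lists. Beyond 100 kb the Scf-GFP-negative replicates differed, with 10.1% in replicate 1 and 4.85% in replicate 2. The Scf-GFP-positive lists held 11.7% and 12% there, so replicate 1 was near them.

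**Figure D4:**
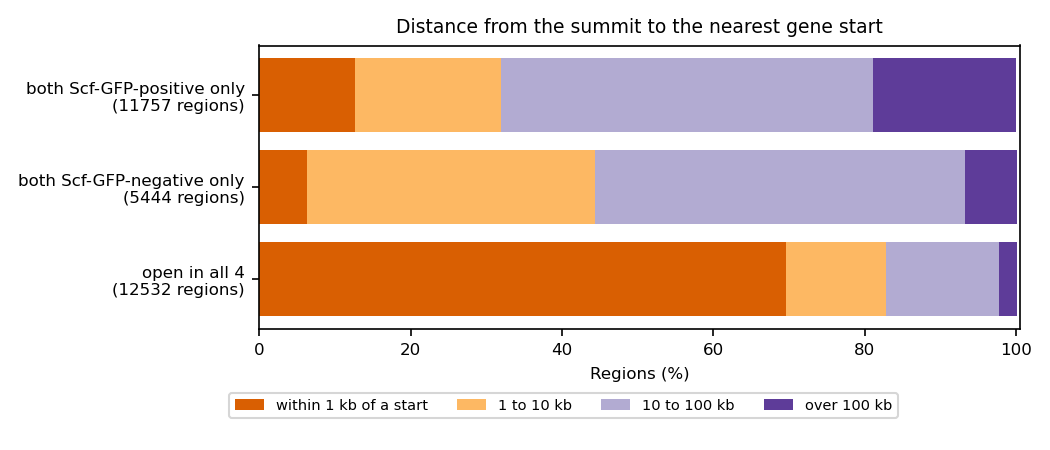
Distance from the summit to the nearest gene start (bar segments, % of regions) for regions open in both libraries of 1 gate alone and in all 4 sorted libraries. The 1 to 10 kb segment takes 38% of Scf-GFP-negative-only and 19.3% of Scf-GFP-positive-only regions.

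The best-ranked Scf-GFP-positive-only regions, by the weaker of their 2 ranks, lay at 3 starts already described (Pdk4, Wwtr1 and Ptprk) and at 3 distal places. One, chr6:112401575-112402798, lay 14227 bp from the start of Ssu2 outside any gene, with ranks of 1192 and 1574, and was open in 5 of 6 cultured libraries. One lay in Adamts1, a matrix protease gene, 2284 bp from its start (chr16:85800474-85804969, ranks 1970 and 1434), and one in Pebp4, 2793 bp from its start (chr14:70056283-70057951, ranks 2006 and 2187). Both were open in 6 of 6 cultured libraries. Distances are to the nearest start and name no target gene.

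The best-ranked Scf-GFP-negative-only regions were all distal. They lay 5207 bp from Inka2 (chr3:105698864-105699778, ranks 2283 and 2393), 2994 bp from Fam117a (chr11:95333537-95335152, ranks 2468 and 1249), 4031 bp from the start of the transcription factor gene Rfx2 and inside it (chr17:56826513-56828195, ranks 2624 and 1787) and 2737 bp from Gadd45a, a stress response gene (chr6:67034313-67035221, ranks 2751 and 1910). Another lay in the red cell gene Trim58, 1326 bp from its start (ranks 4298 and 2220). None of these 5 regions was open in any cultured library.

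The cultured libraries, which took no part in defining these regions, gave an outside readout. Of the Scf-GFP-positive-only regions 43.5%, 43.7% and 44.7% were open in control replicates 1 to 3, and 37.1%, 37.1% and 36.5% in rMSC replicates 1 to 3. Of the Scf-GFP-negative-only regions the shares were 5.66%, 5.99% and 6.54% in control and 7.20%, 7.57% and 7.55% in rMSC. The means were 40.4% ± 3.88 and 6.75% ± 0.816 (SD, n = 6), a difference of 33.7 points ± 4.62 that had the same sign in 6 of 6 libraries (exact sign-flip test, two-sided p = 0.03125, the smallest that 6 libraries allow). With lists of the 20000 strongest peaks the means were 38.9% and 3.70%. Per the labels' protocols the cultures were seeded with Scf-GFP(+) cells, so the cultured libraries share their origin with that gate. The direction could thus be foreseen, and the p-value gives it no separate support. The Scf-GFP-positive-only regions were also wider, with a median of 639 bp against 520 bp. They lay more often within 1 kb of a start, 12.7% against 6.34%, and came from lists with stronger weakest peaks. The part of these differences in the shares was not tested. Of the Scf-GFP-positive-only regions 2506 (21.3%) were open in all 6 cultured libraries and 4547 (38.7%) in none. Of the Scf-GFP-negative-only regions 78 (1.43%) were open in all 6 and 4616 (84.8%) in none. Regions open in all 4 sorted libraries were open in 82.3% to 84.2% of cases.

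**Figure D5:**
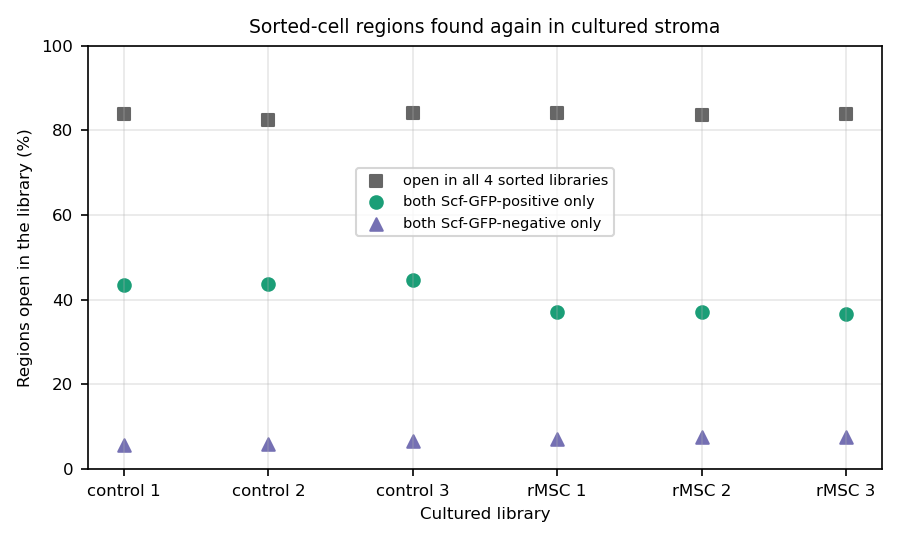
Share of sorted-cell regions open in each of the 6 cultured libraries (y axis, %), by the sorted libraries in which they were open. Scf-GFP-positive-only regions lie between 36.5% and 44.7% and Scf-GFP-negative-only regions between 5.66% and 7.57%.

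Promoters behaved likewise. Of the 1243 Scf-GFP-positive-only promoters 54% to 61.3% were open in the cultured libraries, 446 in all 6 and 268 in none, whereas of the 170 Scf-GFP-negative-only promoters 15.9% to 24.1% were open, 10 in all 6 and 105 in none. Of all 21627 promoters the share was 49.8% to 51.6%.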

How the data were processed

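ATAC-seq peak lists of 4 sorted and 6 cultured mouse libraries were used, 1 list per library. The submitters' processing notes name BWA, MACS2 and mm10. Tool versions and options are not given in the sources read. The deposited peaks carry the authors' score, fold enrichment (a ratio of pileup to background), −log10 p-value and −log10 q-value, which were used only to rank or describe peaks within a list. Peaks on chromosome Y were set aside. Ties in −log10 p, up to 9121 peaks at the end of a list, were ordered at random with a fixed seed. Gene positions and starts came from RefSeq (GRCm38.p6). Of 21627 protein-coding genes, 4354 without a listed start took both gene ends as starts.

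Summits per locus were tested as log2(summits + 0.5) with limma 3.58.1 (trend, R 4.3.3), 10 libraries in 1 fit with 6 residual degrees of freedom, adjusted over all tested loci. This scale understates changes at low counts. On Poisson counts simulated for the 9699 loci of Scf-GFP-positive against Scf-GFP-negative, 24 of 66 loci changed 16-fold, 6 of 67 changed 4-fold and 0 of 67 changed 2-fold were called, with 1 of 9499 unchanged loci. The spread of the real libraries was not compared with Poisson spread, so these shares need not hold for the real lists. Merged regions overlapped a peak by at least 1 bp. Tables were handled in Python 3.11.15.

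Named loci are the 15 with the largest change per direction that passed, did not overlap and held with each sorted library left out, 50 kb apart, without numbered clones or olfactory and vomeronasal receptors; up to 4 passing members of each list per direction; and Kitl, Cxcl12, Lepr, Foxc1, Ebf3, Ptprc and Pecam1. Named promoters and regions are the 6 per direction with the best weaker rank. Results at some loci these rules name are not reported here. Members and lists were chosen with earlier results of these data known.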

Additional observations from a re-analysis of the deposited data

How the results depend on the processing

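Weaker peaks fill the Scf-GFP-negative lists, depth is unknown, and a site missing from a list may be undetected. Higher loci numbered 419 with the 20000 strongest peaks, 1761 with no filter, 439 in the 4 sorted libraries alone and 1704 with covered bases; lower loci numbered 456 with all peaks, 813 with the 20000 strongest and 623 in the sorted libraries alone. Distal higher loci were 208 with the 20000 strongest peaks, and distal lower loci 297 with all peaks and 310 with the 20000 strongest. Scf-GFP-negative-only promoters were 113 with all peaks, and Scf-GFP-positive-only regions 5315 with the 20000 strongest. Leaving out 1 library gave 572 to 1266 higher and 1186 to 1546 lower loci, 405 to 869 and 447 to 945 distal loci, 1497 to 1735 and 296 to 402 promoters, and 12307 to 21441 and 6744 to 21309 regions; a promoter or region then needs fewer libraries, which raises these counts. Other orders of tied peaks, the flow cell tag as a term, and the test of any peak base within the promoter window, were added after seeing the data and moved no count by 1.5 times. Equal totals per chromosome gave 1067 and 1736 loci. The cause of each change was not tested. With the replicate block the counts were 921 and 1451 loci and 679 and 829 distal loci; the deviations of same-numbered libraries correlated at −0.00868 over 9699 loci, so these libraries did not deviate together by number, although the numbers share a flow cell tag. The block removed 172 of the higher and 421 of the lower calls, and the tag as a term gave 730 and 921 distal loci. At loci that the naming rule picks and that are described nowhere else, directions reversed with all peaks for Lats2 (0.19), Ptpn14 (0.029) and Eng (0.12), with the 20000 strongest for Vgll4 (0.31), Plvap (0.67) and Ier3 (0.24), and with covered bases for Plvap (0.51) and Ier3 (0.98).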

Other observations

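The T and NK lymphoid list, 7 of 20 loci tested, had 3 loci higher and 3 lower in Scf-GFP-positive cells (limma), though 3 of its promoters were open in those libraries alone and 0 in the others alone, with 0 and 0 called when Scf-GFP-positive replicate 2 was left out. Bcl11b, a T cell and mesenchymal regulator, had 0 and 0 against 4 and 6 summits, and Lck, a T cell kinase, had 5 and 5 against 2 and 2. Of the Schwann and neural list, the cell adhesion gene Ncam1 had 0 and 0 against 12 and 8 summits (limma adjusted p = 0.0002209), while Mbp, the myelin protein gene, had 16 and 28 against 8 and 10 (limma adjusted p = 0.01387). The Mbp call was lost without Scf-GFP-positive replicate 1, and that of Lck without either Scf-GFP-positive library. Neither was called with all peaks, nor Mbp in the sorted libraries alone.

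Immediate early genes, which rise when tissue is dissociated, had 4 of 24 loci higher and 1 lower (16.7% and 4.17%). Of all tested loci 10.9% and 18.3% were, so with equal lists the higher share was near that of all loci and the lower share below it. The count rested on the setting. With all peaks 8 were higher and 0 lower, beside 12.7% and 4.11% of all loci. With covered bases the counts were 15 and 0, beside 1704 and 1271 of all 9699 loci. In the sorted libraries alone they were 1 and 2, beside 4.53% and 6.42%. Fos had 5 and 5 against 11 and 11 summits (log2 1.06 ± 0.21, limma adjusted p = 0.009503), and Fosb had 6 and 6 against 15 and 12 (log2 1.10 ± 0.31, limma adjusted p = 0.03634), a call lost with each library left out in turn and in the sorted libraries alone. Neither was called with the 20000 strongest peaks. In culture Fos had 4 to 7 summits. The Junb promoter was open in both Scf-GFP-positive lists, at ranks 5007 and 3563, and in neither Scf-GFP-negative list, though a Scf-GFP-negative peak reached its window.

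Fli1, an Ets factor of blood and endothelial cells, went against its list, with 2 and 6 against 11 and 12 summits (log2 1.57 ± 0.46, limma adjusted p = 0.039) and 1 to 3 in the cultured libraries. Its call was lost without Scf-GFP-negative replicate 1 or either Scf-GFP-positive library, with limma adjusted p up to 0.1404. It was also lost with the replicate block (0.06672), with all peaks (0.09561) and in the sorted libraries alone (0.2241). The chondrocyte factor gene Sox5, on chromosome 6, had 38 and 21 against 7 and 5 summits (log2 −2.16 ± 0.29, limma adjusted p = 0.00215), with its highest count in Scf-GFP-negative replicate 1. Its call was lost with all peaks (limma adjusted p = 0.08829) and in the sorted libraries alone (0.1099).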
